A study of Mus musculus with 10 samples.

Results

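The genes described here are 10 regulators and markers of T cell memory and effector fate: Tcf7, Lef1, Bcl11b, Il7r and Id3 on the naive and memory side, and Tbx21, Eomes, Runx3, Id2 and Klrg1 on the effector side. They were chosen by symbol from a table of 24202 genes, and all 10 were found in it. All 10 also belonged to the 16767 tested genes, those averaging 10 or more normalized counts over the tumors. The study set 5 tumors labelled PIIO-1 against 5 labelled PBS. PIIO-1 is an antibody against GARP, the surface protein that holds latent TGF-beta on regulatory T cells and platelets; each mouse had 200 ug by intraperitoneal injection, once on day 6 and once on day 9. All mice, those given PBS included, carried the hLrrc32 knock-in, a human copy of the gene for GARP. All received 100000 MB-49 cells, a mouse bladder cancer line, under the skin of the flank, and whole tumors were taken on day 10. The labels give no age, strain background or number of mice per library, nor whether each tumor had its own animal, so p-values measure the spread between these samples.

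After antigen encounter a T cell can keep the capacity to persist and divide again, or it can specialise in killing and cytokine release. TCF-1 and LEF-1, encoded by Tcf7 and Lef1, hold cells in the naive and memory state, while T-bet and Eomesodermin, encoded by Tbx21 and Eomes, drive effector genes. Id2 and Id3 block E proteins and act at opposite ends of this choice. NK cells and other innate lymphocytes use many of the same factors. In whole tumors these transcripts therefore add up over all cells, and fewer cells of a type cannot be told apart from less RNA per cell.

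Taking the step between values of a column as 1 read, the libraries held between 29689555 and 35299028 reads in genes in PIIO-1 tumors, and between 18843192 and 37581521 in PBS tumors. PIIO-1 tumor 5 lay farthest out on the first principal component of the tested genes and PBS tumor 4, the shallowest library, on the second. Results that turn on either are also given without it. T cell RNA was present in every tumor: the 14 listed T cell genes, Cd3e, Cd8a and Cd4 among them, summed to between 3673 and 9586 normalized counts in PIIO-1 tumors and between 4859 and 9367 in PBS tumors. None of these 14 genes was at 0 in all tumors. The 8 NK cell genes summed to between 5301 and 13253 in PIIO-1 tumors and between 7322 and 11481 in PBS tumors. Markers of other contents varied too: the 6 red blood cell genes summed to between 8458 and 58768 in PIIO-1 and between 5563 and 12904 in PBS tumors, and the 10 stress genes to between 122525 and 224579 in PIIO-1 and between 106239 and 144396 in PBS tumors. Differences were positive for all 6 red blood cell and all 10 stress genes, and for 6 of 8 dendritic cell, 5 of 8 macrophage, 6 of 7 endothelial, 5 of 5 mast cell, 2 of 8 fibroblast and 2 of 4 keratinocyte genes, for 8 of 8 neutrophil and 7 of 8 B cell genes, but for 3 of 14 T cell and 0 of 8 NK cell genes; none was called by limma. Their part in the results below was not tested.

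None of the 10 fate regulators differed between PIIO-1 and PBS tumors by limma with Benjamini-Hochberg adjustment over all 16767 genes (adjusted p between 0.844 and 0.988). Over all genes tested 0 were called, which is 0%. At an unadjusted p under 0.05 the count was again 0 of 10 members, beside 944 genes or 5.63% of those tested. No member had groups that did not overlap, against 0.853% of the tested genes. The median difference of the 10 members was 0.076 on the log2 scale, with 7 positive and 3 negative, beside a median of 0.0027 and 51.1% positive over all genes tested. Differences are PIIO-1 minus PBS on the log2(normalized count + 1) scale, which understates the change of low genes, with the standard error (SE) and 95% interval from limma.

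**Figure D1:**
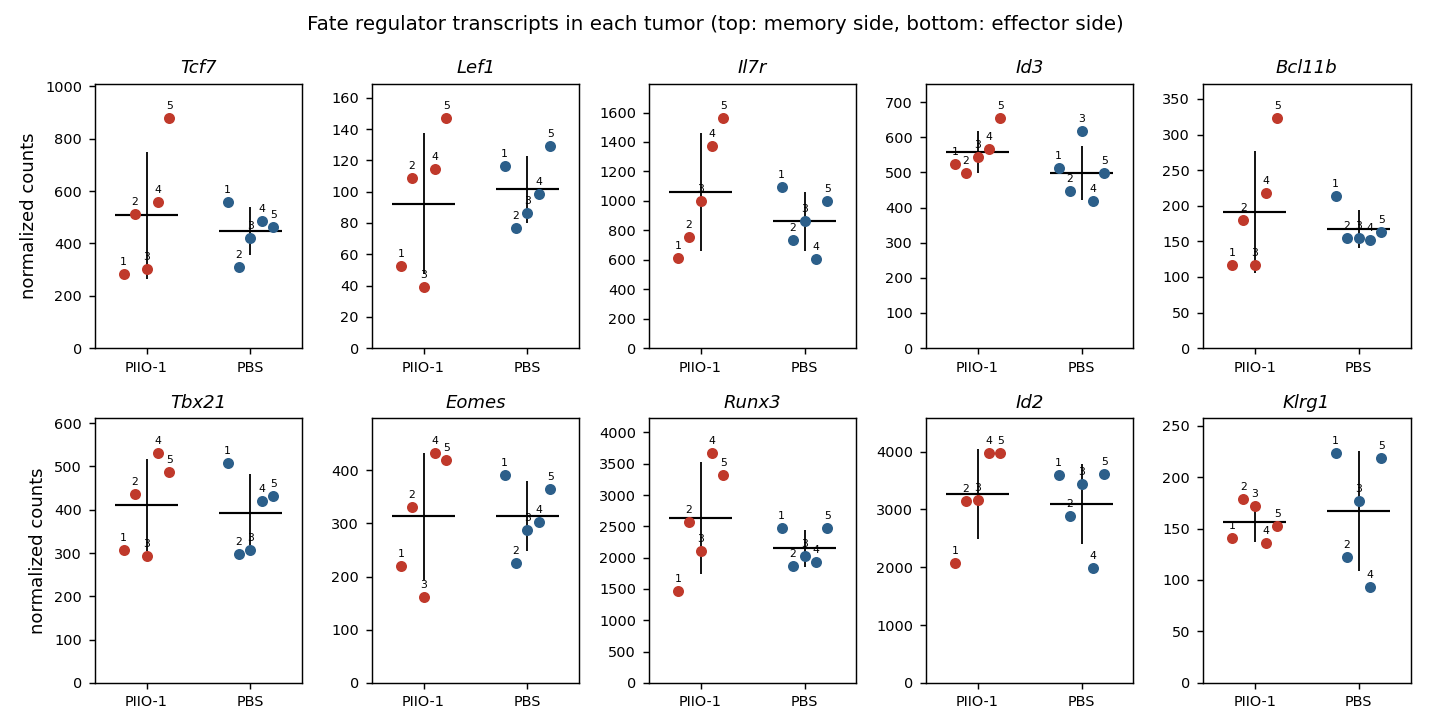
Normalized counts of the 10 genes (vertical axes, from 0) in each of 5 PIIO-1 tumors (red) and 5 PBS tumors (blue); numbers are replicate numbers, horizontal bars the group means and vertical bars 1 SD. The groups overlap for every gene, and PIIO-1 tumors 1 and 3 lie below all PBS tumors for Tcf7, Lef1, Bcl11b and Eomes while PIIO-1 tumor 5 lies above all PBS tumors for Tcf7, Lef1 and Bcl11b.

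Tcf7 encodes TCF-1, a DNA-binding partner of beta-catenin and a hallmark of stem-like and memory T cells. The gene lies on chromosome 11, 52252371 to 52283014, on the minus strand of GRCm38. It measured 282, 511, 304, 559 and 878 normalized counts in PIIO-1 tumors 1 to 5, and 557, 309, 422, 484 and 461 in PBS tumors 1 to 5. Both the lowest and the highest tumor of the series were PIIO-1 tumors, and 2 PIIO-1 tumors lay above and 2 below every PBS tumor. The means were 507 ± 241 in PIIO-1 tumors and 447 ± 91.1 in PBS tumors (SD, n = 5 each). The difference was 0.081 (SE 0.28, interval -0.54 to 0.70; limma adjusted p = 0.976). Without PIIO-1 tumor 5 it was -0.15.

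Lef1, on chromosome 3, 131110471 to 131224356 (plus strand), encodes LEF-1, a close relative of TCF-1 with overlapping targets. It measured 52.7, 109, 39.2, 114 and 147 normalized counts in PIIO-1 tumors and 117, 77.0, 86.6, 98.3 and 129 in PBS tumors. PIIO-1 tumors 1 and 3 were again lower than any PBS tumor and PIIO-1 tumor 5 higher. The difference was the most negative of the members, -0.27 (SE 0.33, interval -0.9992 to 0.45), and shrank to -0.0090 without PIIO-1 tumor 3. Lef1 shares 1208 exon bases with Gm43352, annotated on the opposite strand, and the strand setting of the counting is not given, so reads of both cannot be told apart.

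Bcl11b encodes a zinc finger factor that commits precursors to the T cell lineage and keeps that identity. Its gene spans chromosome 12, 107910403 to 108003602, on the minus strand. Levels were 117, 180.1, 117, 218 and 323 normalized counts in PIIO-1 tumors, against 214, 155, 154, 151 and 163 in PBS tumors. PBS tumor 1 stood apart from the other 4 PBS tumors, whereas the PIIO-1 tumors spanned a 2.77-fold range beside a 1.41-fold range in PBS. The means were 191 ± 85.5 in PIIO-1 and 168 ± 26.3 in PBS tumors, and the difference was 0.092 (SE 0.25, interval -0.46 to 0.65). It was -0.12 without PIIO-1 tumor 5.

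The promoter of Bcl11b is shown because it holds the core letters of the TCF/LEF motif, CTTTGA. These letters, or their reverse complement TCAAAG, were searched in the windows from 250 bases before to 50 after each start site that RefSeq gives for GRCm38.p6. Such windows were matched for 9 of the 10 members, all but Klrg1. Capitals mark the motif, which starts 89 bases before the start site in chr12:108003365-108003664 on the minus strand. Among all 32851 promoter windows 16.0% hold these letters, and Bcl11b and 1 of the 4 windows of Lef1 held them among the members. A match describes the sequence only, and whether TCF-1 or LEF-1 acts on Bcl11b was not tested. The T-box letters GGTGTGA and their reverse complement TCACACC were found in none of the members' windows and in 3.98% of all windows.
Bcl11b: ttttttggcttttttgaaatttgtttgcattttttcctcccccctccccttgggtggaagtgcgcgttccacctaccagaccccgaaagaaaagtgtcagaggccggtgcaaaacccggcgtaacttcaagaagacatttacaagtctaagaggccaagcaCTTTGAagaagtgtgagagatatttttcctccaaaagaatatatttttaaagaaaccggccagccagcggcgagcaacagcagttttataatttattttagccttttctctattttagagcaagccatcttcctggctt

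Il7r, the receptor chain that gives naive and memory T cells the survival signal of interleukin 7, lies on chromosome 15, 9505788 to 9530176 (minus strand). It measured 609, 756, 999, 1369.6 and 1562 normalized counts in PIIO-1 tumors and 1097, 736, 866, 602 and 999 in PBS tumors. PIIO-1 tumors 4 and 5 exceeded every PBS tumor, and no PIIO-1 tumor lay below them all. The means were 1059 ± 402 in PIIO-1 and 860.0 ± 198 in PBS tumors, a difference of 0.25 (SE 0.25, interval -0.30 to 0.79; limma adjusted p = 0.891). This was the largest positive difference of the 10 genes. Leaving out PIIO-1 tumor 5 gave 0.083, and leaving out PBS tumor 4 as well gave -0.037.

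The T-box genes carry the effector program. Tbx21 (chromosome 11, 97098071 to 97115331, minus strand), which encodes T-bet, the inducer of interferon-gamma, measured 306, 435, 294, 531 and 487 normalized counts in PIIO-1 tumors, against 508, 298, 307, 419.8 and 431 in PBS tumors. Its group ranges nearly coincided, and the difference was 0.054 (SE 0.20, interval -0.38 to 0.49), and leaving out PIIO-1 tumor 4 gave the lowest value, -0.049. Eomes (chromosome 9, 118478212 to 118486132, plus strand), whose product sustains memory CD8 T cells and mature NK cells, measured 221, 332, 161, 433 and 420.2 in PIIO-1 tumors, against 391, 225, 288, 303 and 365 in PBS tumors. Of the PIIO-1 tumors 2 lay above and 2 below every PBS tumor. The means were 313 ± 120.3 in PIIO-1 and 314 ± 65.5 in PBS tumors, and the difference was -0.077 (SE 0.26, interval -0.65 to 0.50), or 0.14 without PIIO-1 tumor 3. Eomes shares 118 exon bases with Gm33460 on the opposite strand.

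Runx3 encodes a Runt-domain factor that silences Cd4 in CD8 T cells and opens cytotoxic genes. It lies on chromosome 4, 135120652 to 135177990 (plus strand). It measured 1468, 2573, 2107, 3673 and 3318 normalized counts in PIIO-1 tumors, and 2469, 1866, 2021, 1935 and 2468 in PBS tumors. Of the PIIO-1 tumors 3 lay above every PBS tumor and 1 below. The means were 2628 ± 893 in PIIO-1 and 2152 ± 295 in PBS tumors, a difference of 0.22 (SE 0.21, interval -0.24 to 0.69; limma adjusted p = 0.883). Leaving out PIIO-1 tumor 4 gave 0.086, and leaving out PIIO-1 tumor 1 gave 0.42.

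Promoter windows are shown for Runx3 and Il7r, the members whose windows hold the RUNX core TGTGGT or its reverse complement ACCACA. Capitals mark it: in Runx3 it starts 134 and again 126 bases before the upstream one of its 2 RefSeq start sites, and in Il7r it starts 3 bases after the start site. The windows are chr4:135120395-135120694 (plus strand) and chr15:9529827-9530126 (minus strand), from RefSeq on GRCm38.p6. Of all 32851 windows 16.8% hold these letters, and a match describes the sequence only. Whether the Runx3 product acts on either gene was not tested.
Runx3: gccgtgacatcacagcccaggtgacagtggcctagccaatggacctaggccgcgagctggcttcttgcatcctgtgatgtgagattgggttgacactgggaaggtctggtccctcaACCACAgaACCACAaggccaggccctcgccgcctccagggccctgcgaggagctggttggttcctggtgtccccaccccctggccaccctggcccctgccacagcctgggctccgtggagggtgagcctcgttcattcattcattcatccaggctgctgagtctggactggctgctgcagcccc
Il7r: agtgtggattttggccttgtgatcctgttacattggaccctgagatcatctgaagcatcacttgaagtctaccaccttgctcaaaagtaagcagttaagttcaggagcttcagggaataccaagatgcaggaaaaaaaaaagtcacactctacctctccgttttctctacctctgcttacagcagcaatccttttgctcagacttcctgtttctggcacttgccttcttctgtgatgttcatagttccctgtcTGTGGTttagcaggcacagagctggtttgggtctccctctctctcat

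Id2 and Id3 encode small helix-loop-helix proteins that cannot bind DNA and tie up E proteins; in CD8 T cells Id2 supports effectors and Id3 marks memory precursors. Id2 (chromosome 12, 25093799 to 25097140, minus strand) measured 2072, 3151, 3164, 3975 and 3979 normalized counts in PIIO-1 tumors, and 3592, 2894, 3432, 1980.2 and 3614 in PBS tumors. In each group a single tumor lay well below the others, PIIO-1 tumor 1 and PBS tumor 4. The difference was 0.071 (SE 0.20, interval -0.37 to 0.51), and -0.082 without PBS tumor 4.

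Id3 (chromosome 4, 136143497 to 136145755, plus strand) measured 524, 497, 543, 566 and 654 in PIIO-1 tumors, and 512, 447, 619, 418 and 497 in PBS tumors. Its PIIO-1 tumors differed by at most 1.32-fold, and only PIIO-1 tumor 5 exceeded every PBS tumor. The means were 557 ± 60.03 in PIIO-1 and 499 ± 77.2 in PBS tumors, and the difference of 0.17 (SE 0.11, interval -0.072 to 0.40) had the smallest p of the members (unadjusted p = 0.153 and adjusted p = 0.844 by limma). It lay between 0.11 and 0.25 when each tumor was left out in turn, and at 0.047 when the outlying libraries, PIIO-1 tumor 5 and PBS tumor 4, were dropped together.

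Klrg1, on chromosome 6, 122270596 to 122282882 (minus strand), encodes an inhibitory receptor for cadherins that marks short-lived effector T cells, mature NK cells and some innate lymphocytes. It measured 141, 179, 172, 135 and 152 normalized counts in PIIO-1 tumors, and 224, 122, 177, 93.6 and 219 in PBS tumors. All PIIO-1 tumors lay inside the PBS range. Here the PBS group was the more spread out, with a 2.39-fold range beside 1.32-fold in PIIO-1 tumors. The means were 156 ± 19.0 in PIIO-1 and 167 ± 57.9 in PBS tumors, a difference of -0.028 (SE 0.23, interval -0.52 to 0.47). This difference was 0.096 without PBS tumor 1 and -0.22 without PBS tumor 4.

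**Figure D2:**
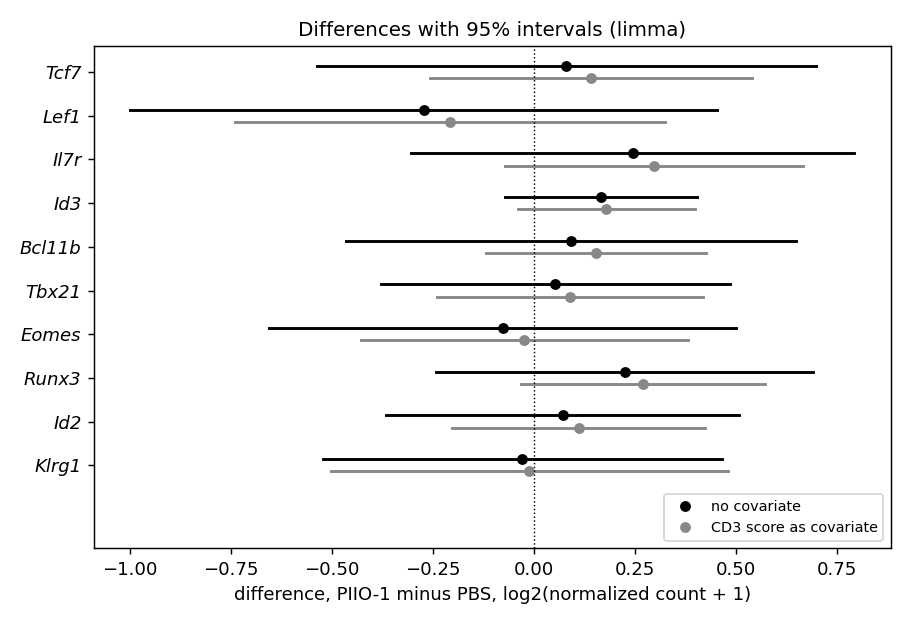
Differences of the 10 genes between PIIO-1 and PBS tumors (horizontal axis, PIIO-1 minus PBS on the log2(normalized count + 1) scale) with 95% intervals from limma, without a covariate (black) and with the CD3 score of each tumor as a covariate (grey). Every interval includes 0, and the grey intervals of Tcf7, Bcl11b, Il7r and Runx3 are narrower than the black ones.

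For most members the PIIO-1 tumors were spread more widely than the PBS tumors. The SD of the log2 level was larger among PIIO-1 than among PBS tumors for 8 of the 10 members, all but Id3 and Klrg1. The same held for 58.4% of all genes tested, and for 13 of 14 T cell, 8 of 8 NK cell and 16 of 17 receptor genes, so the wider spread was not particular to the members. The median SD of the members was 0.55 in PIIO-1 and 0.31 in PBS tumors, beside 0.17 in PIIO-1 and 0.15 in PBS tumors over all genes. For Bcl11b it was 0.62 in PIIO-1 and 0.21 in PBS tumors, and for Lef1 0.80 in PIIO-1 and 0.30 in PBS tumors. This difference in spread was not tested. The summed level of the 14 T cell genes was likewise lowest in PIIO-1 tumors 1 and 3 and highest in PIIO-1 tumor 5, and PIIO-1 tumor 5 also held the highest sums of the 8 B cell genes (2169, against at most 1611 elsewhere) and of the 8 neutrophil genes (44837, against at most 33629). The same tumor was highest for red blood cell genes (58768, against at most 23905), stress genes (224579, against at most 167613) and mast cell genes (15126, against at most 10806). The part of these contents in the spread was not tested.

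To set the members beside T cell RNA, a CD3 score was taken in each tumor as the mean log2 level of Cd3d, Cd3e, Cd3g and Cd247, the signalling chains of the T cell receptor. It ran from 7.38 to 8.91, with no gap wider than 0.22 of that range. An NK score over the 8 NK cell genes, Ncr1 and Klrb1c among them, ran from 8.32 to 9.53. With 20 relations of the 10 members to both scores, p-values came from 100000 permutations and were adjusted over the 20.

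Most fate regulators followed at least one of the scores, and Id3 and Klrg1 passed the test with neither. Bcl11b was closest to the CD3 score (r = 0.90, permutation p = 0.00018, adjusted 0.0024; Spearman's rho = 0.84, p = 0.0033, adjusted 0.011). Dropping the 2 tumors farthest from the median score (PIIO-1 tumor 1 and PBS tumor 1) gave r = 0.92. Tcf7 had r = 0.78 (permutation p = 0.0076, adjusted 0.022; rho = 0.77, p = 0.012, adjusted 0.031; r = 0.74 without the same tumors). With the NK score Tcf7 had a higher r, 0.85 (permutation p = 0.0016, adjusted 0.0074, and rho = 0.92, adjusted 0.0030). Lef1 likewise had r = 0.73 with the CD3 score and 0.87 with the NK score. PIIO-1 tumors 1 and 3 were lowest in both scores, and the relation of the scores to each other was not tested. In all, 7 of the 10 members had an adjusted p under 0.05 by Pearson's r with the CD3 score, and 3 did by Spearman's rho (Bcl11b, Tcf7 and Eomes). Of all 16767 genes tested, 2015 (12%) had an r with the CD3 score at least as far from 0 as the weakest of those 7, and 7.99% a rho as far as the weakest of those 3.

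With the NK score, 6 of 10 members had an adjusted p under 0.05 by either measure. Of all genes tested, 1851 (11%) had an r and 8.86% a rho at least as far from 0 as the weakest of those 6. The T-box genes had the highest r: 0.89 for Eomes (permutation p = 0.00081, adjusted 0.0054; rho = 0.93, p = 0.00032, adjusted 0.0030) and 0.89 for Tbx21 (permutation p = 0.00024, adjusted 0.0024; rho = 0.95, p = 0.0001, adjusted 0.0020). Without PIIO-1 tumors 1 and 3, the farthest from the median, r was 0.91 for Eomes and 0.90 for Tbx21. The NK score leaves its widest gap between 3 low tumors and the other 7. Over those 7 tumors r was 0.87 for Tbx21 and 0.78 for Eomes, but 0.40 for Tcf7, 0.46 for Lef1 and 0.52 for Bcl11b. The 3 low tumors were PIIO-1 tumors 1 and 3 and PBS tumor 2. Without PIIO-1 tumors 1 and 3 only, r was 0.72 for Tcf7, 0.73 for Lef1 and 0.52 for Bcl11b. The 7 tumors span a narrower range of the score, which can itself lower r. They therefore do not show how far these relations rest on the 3 low tumors.

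Klrg1 had r = 0.28 with the CD3 score (permutation p = 0.431, adjusted 0.479; rho = 0.27, p = 0.447, adjusted 0.470) and r = -0.0088 when PIIO-1 tumor 1 and PBS tumor 1 were dropped. Id3 had r = 0.41 (permutation p = 0.245, adjusted 0.288; rho = 0.38, p = 0.279, adjusted 0.329), and r = 0.60 when the same tumors were dropped. Neither relation passed, which does not show that these genes are independent of T cell RNA. With 5 tumors per group, no correlation was computed within a group, since at least 6 tumors are needed.

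**Figure D3:**
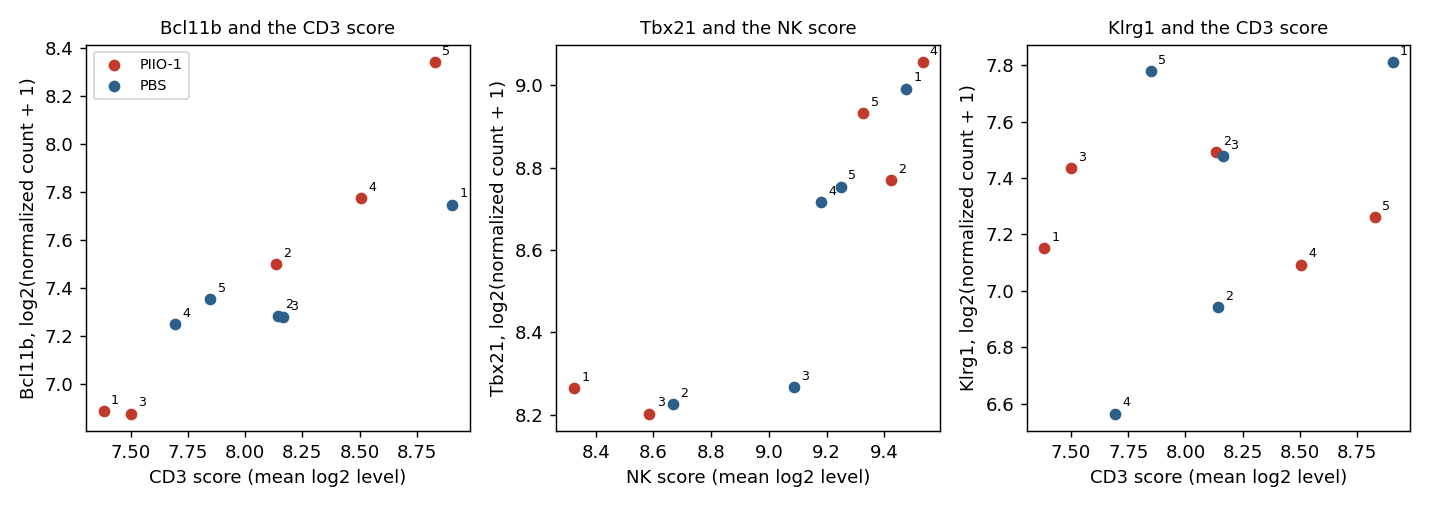
Log2 levels (vertical axes) of Bcl11b, Tbx21 and Klrg1 in each tumor against the mean log2 level of the CD3 chains or the NK cell genes (horizontal axes), PIIO-1 in red and PBS in blue, with replicate numbers. Bcl11b (r = 0.90) and Tbx21 (r = 0.89) climb with their score across both groups, and Klrg1 (r = 0.28) does not line up with the CD3 score.

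With the CD3 score as a covariate the SE of most members shrank, and still none of the 10 was called by limma over all 16767 genes (adjusted p between 0.572 and 0.994). Over all genes 0 were called, and 1517 or 9.05% had an unadjusted p under 0.05, among them 0 members. Runx3 had the smallest p of the members, with a difference of 0.27 (SE 0.14, interval -0.032 to 0.57; unadjusted p = 0.0748 and adjusted p = 0.572 by limma). Il7r differed by 0.30 (SE 0.17, interval -0.072 to 0.67) and Id3 by 0.18 (SE 0.099, interval -0.038 to 0.40). Tcf7 differed by 0.14 (SE 0.18; 0.0030 without PIIO-1 tumor 5), Bcl11b by 0.15 (SE 0.12; 0.042 without PIIO-1 tumor 5) and Tbx21 by 0.090 (SE 0.15; 7e-06 without PBS tumor 2). Lef1 differed by -0.21 (SE 0.24; -0.039 without PBS tumor 5), Eomes by -0.024 (SE 0.18), Id2 by 0.11 (SE 0.14) and Klrg1 by -0.012 (SE 0.22).

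The correlation of the members with each other was added after the data were seen. Among the 45 pairs, 18 had a permutation p for Pearson's r under 0.05 after adjustment over the 45, and 21 did by Spearman's rho. Of all pairs of tested genes, 3.64% had an r and 5.13% a rho at least as far from 0 as the weakest of these. All 10 pairs within Tcf7, Lef1, Bcl11b, Tbx21 and Eomes were among both, with r between 0.79 and 0.95. Without the 2 tumors farthest from the median of the first gene, r was between 0.75 and 0.93. These 5 genes were not a set planned beforehand, so their passing together is a description and no test of a group. Runx3 also passed by both measures with Tcf7, Bcl11b, Tbx21 and Eomes (r = 0.82, 0.82, 0.80 and 0.75), and with Lef1 by Spearman's rho only. Of the 25 pairs of a memory with an effector gene, 10 passed by Pearson's r and 13 by Spearman's rho. Lef1 with Eomes had r = 0.95 (permutation p = 7e-05, adjusted 0.0012; rho = 0.92, p = 0.00052, adjusted 0.0040; r = 0.89 without PIIO-1 tumors 1 and 3). Tcf7 with Bcl11b had r = 0.94 (permutation p = 6e-05, adjusted 0.0012; rho = 0.90, p = 0.00078, adjusted 0.0050; r = 0.83 without PIIO-1 tumors 1 and 5).

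Il7r varied with Id2 (r = 0.89, permutation p = 0.00058, adjusted 0.0052; rho = 0.94, p = 0.00029, adjusted 0.0038; r = 0.88 without PIIO-1 tumor 5 and PBS tumor 4) and with Runx3 (r = 0.86, permutation p = 0.0015, adjusted 0.0073; rho = 0.82, p = 0.0060, adjusted 0.017; r = 0.85 without the same tumors). No pair with Klrg1 (r between 0.13 and 0.62) or with Id3 (r between 0.11 and 0.70) passed. All levels come from the same 10 libraries, so cell content that varies between tumors enters every pair.

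**Figure D4:**
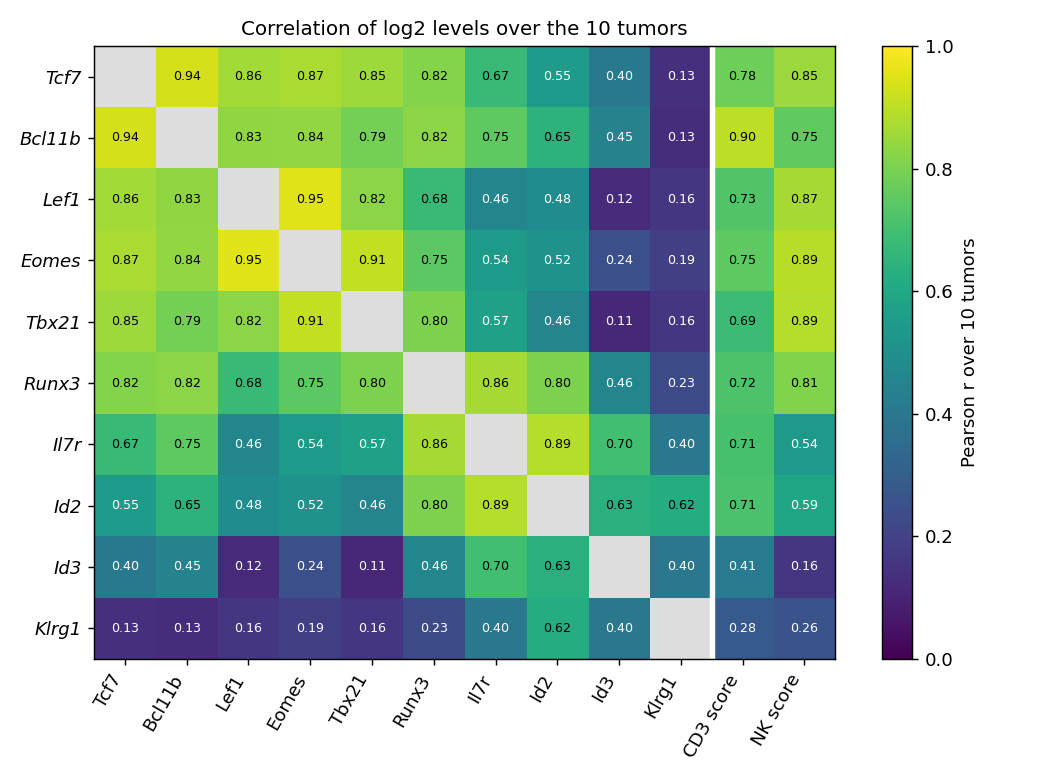
Pearson's r of log2 levels over the 10 tumors for each pair of the 10 genes, and to the right of the white line with the CD3 score and the NK score; colour runs from 0 (dark) to 1 (yellow), and the diagonal is grey. The block of Tcf7, Bcl11b, Lef1, Eomes and Tbx21 lies between 0.79 and 0.95, while the Klrg1 row stays between 0.13 and 0.62.

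Ratios within a tumor cancel only what scales both genes alike, so cell content that enters the 2 genes unequally remains. They are given with no test for 3 memory to effector pairs and for the T-box pair. The log2 ratio of Tcf7 to Tbx21 averaged 0.22 ± 0.38 in PIIO-1 and 0.19 ± 0.16 in PBS tumors (SD, n = 5 each). PIIO-1 tumor 5 had the highest ratio, 0.85, and PIIO-1 tumor 1 the lowest, -0.12. The log2 ratio of Id3 to Id2 averaged -2.52 ± 0.32 in PIIO-1 and -2.61 ± 0.26 in PBS tumors, a gap well inside either SD. That of Eomes to Tbx21 averaged -0.45 ± 0.25 in PIIO-1 and -0.32 ± 0.15 in PBS tumors, with the lowest value, -0.86, in PIIO-1 tumor 3.

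The log2 ratio of Il7r to Klrg1 averaged 2.68 ± 0.63 in PIIO-1 and 2.40 ± 0.21 in PBS tumors. It was spread widely in the PIIO-1 group: tumors 4 and 5 stood at 3.33 and 3.35, above the PBS maximum of 2.67. PIIO-1 tumors 1 and 2 stood at 2.10 and 2.07, below the PBS minimum of 2.19, and tumor 3 at 2.53, inside the PBS range. The gap between the group means, 0.27, was 0.11 without PIIO-1 tumor 5. The groups overlapped for all 4 ratios.

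**Figure D5:**
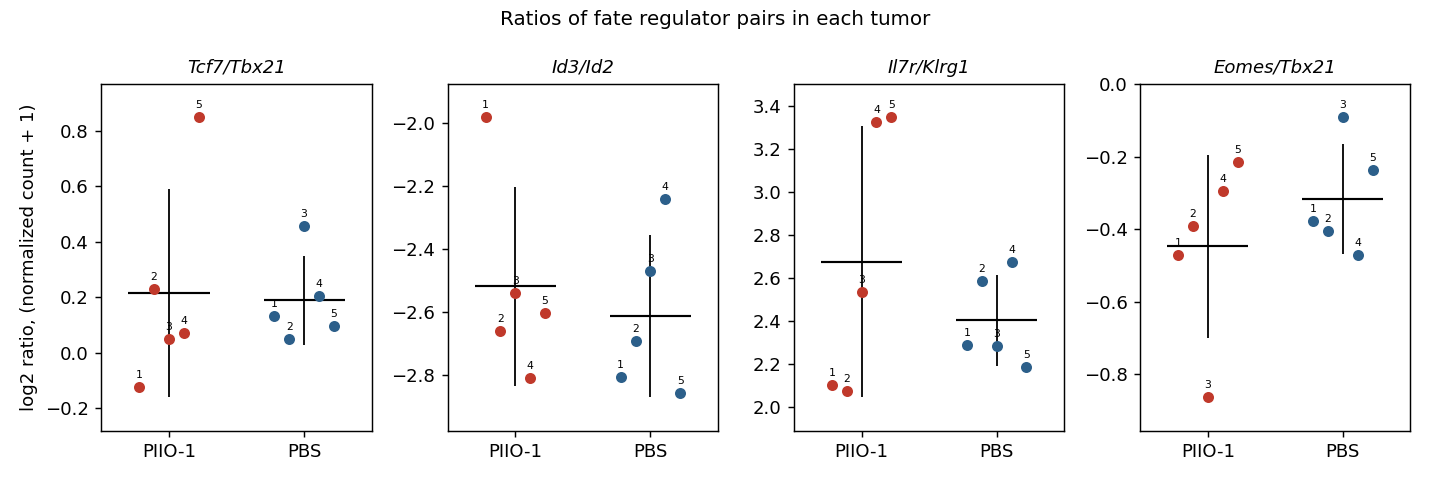
Log2 ratios of normalized counts + 1 (vertical axes, not from 0) for 4 pairs of fate regulators in each PIIO-1 tumor (red) and PBS tumor (blue), with replicate numbers, group means and 1 SD. The PIIO-1 and PBS tumors overlap for each pair, and the Il7r to Klrg1 ratio of PIIO-1 tumors 4 and 5 (3.33 and 3.35) lies above the highest PBS value (2.67).

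Levels were compared between genes as normalized counts per kilobase of annotated exon. Id2 was the most abundant, at 1340.5 ± 322 in PIIO-1 and 1272 ± 284 in PBS tumors, followed by Runx3 at 525 ± 178 in PIIO-1 and 430.1 ± 58.9 in PBS tumors and by Id3 at 311 ± 33.5 in PIIO-1 and 278 ± 43.1 in PBS tumors. These steps held in all 10 tumors, as did the order of Eomes over Bcl11b over Lef1 at the low end. Il7r, Tcf7, Tbx21 and Klrg1 lay between, with neighbours that changed places: Il7r exceeded Tcf7 in 8 of 10 tumors, Tcf7 exceeded Tbx21 in 6, Tbx21 exceeded Klrg1 in 8 and Klrg1 exceeded Eomes in 8. Lef1 stood at 10.5 ± 5.13 in PIIO-1 and 11.6 ± 2.43 in PBS tumors.

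The genes most like each member over the 10 tumors were listed from the 13110 genes averaging 50 or more normalized counts, by Pearson's r and as a description only. For Tcf7 they were Clec2i, Ctsw (cathepsin W, made by cytotoxic lymphocytes) and Btla, an inhibitory lymphocyte receptor gene, each at r = 0.98. For Bcl11b they were S1pr4 (0.99), Carmil2 (0.98) and Tlr2 (0.97), and for Lef1 they were Eomes (0.95), Dus1l and Ptprcap (both 0.94). Eomes had Akip1 and Eif5a2 (both 0.96) ahead of Lef1, and Tbx21 had Otulin (0.99), Slain1 (0.97) and Icam1 (0.96). Nearest to Il7r were Xylt1, Srgn, the serglycin gene of granule-bearing blood cells, and Sh2d3c (all 0.99), and nearest to Runx3 were Phf21a (0.99), Wipf1 and Psd4 (both 0.98). Id2 was nearest to Nsrp1, Ccr1, a chemokine receptor gene of myeloid cells (both 0.97), and Tlr13 (0.96). Id3 was nearest to Slc25a20 (0.92), Crnkl1 (0.91) and Crispld2 (0.90), and Klrg1 to Kctd13 (0.94), Coa4 and Polr2e (both 0.93).

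Around the members, 72 further genes of the same pathways were listed by role, and 66 of them were tested. None was called by limma over all genes, and 6 of the 66 had an unadjusted p under 0.05, beside 5.63% of all genes. Their median difference was 0.064, with 43 positive, beside 0.0027 over all genes.

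Of the 10 ligands, 6 were tested, and Il2, Il21, Tslp and Cdh2 fell below the filter. Il7, the stromal cytokine that Il7r binds, measured 201, 212, 211, 209.6 and 157 normalized counts in PIIO-1 tumors and 241, 279, 292, 253 and 208 in PBS tumors. Only PBS tumor 5 lay within the PIIO-1 range, and the difference was -0.36 (SE 0.12; unadjusted p = 0.0110 and adjusted p = 0.837 by limma). Cdh1, the E-cadherin gene and so a ligand of the Klrg1 receptor, averaged 762 ± 288 in PIIO-1 and 468 ± 174 in PBS tumors, a difference of 0.72 (SE 0.31; adjusted p = 0.837).

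Of the 17 receptors, all tested, 8 were positive and 9 negative. Il12rb1, the shared receptor chain for interleukins 12 and 23, differed by -0.42 (SE 0.13; unadjusted p = 0.00612 and adjusted p = 0.837 by limma), with 2554 ± 544 normalized counts in PIIO-1 and 3389.7 ± 374 in PBS tumors. Il15ra, which presents interleukin 15, averaged 1994 ± 263 in PIIO-1 and 2259 ± 176 in PBS tumors, a difference of -0.19 (SE 0.086; limma adjusted p = 0.837).

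Of the 13 signalling genes 10 were positive. Foxo3, a transcription factor held in check by AKT, averaged 2276 ± 217 in PIIO-1 and 1962 ± 226 in PBS tumors (difference 0.22, SE 0.086). Among the 12 tested of 14 partner genes 7 were positive; Id4 and Tcf7l1 fell below the filter. Id1, a further Id gene, averaged 1008 ± 99.7 in PIIO-1 and 859 ± 112 in PBS tumors (0.23, SE 0.095). Tcf3, which encodes E proteins that Id2 and Id3 bind, averaged 5032 ± 283 in PIIO-1 and 5349 ± 299 in PBS tumors (-0.088, SE 0.053). Of the 18 other fate factors 14 were positive. Nfil3, required for NK cell development, averaged 3487 ± 856 in PIIO-1 and 2662 ± 402 in PBS tumors (0.36, SE 0.16). Bhlhe40, a regulator of T cell cytokine output, averaged 9870.0 ± 2296 in PIIO-1 and 7866 ± 1259 in PBS tumors (0.31, SE 0.16). Foxo3, Id1, Tcf3, Nfil3 and Bhlhe40 each had an adjusted p of 0.837 by limma with Benjamini-Hochberg adjustment.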

How the data were processed

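RNA of 10 whole MB-49 tumors, dissociated into single cells per the series' design text, was sequenced in bulk, with libraries from an NEBNext Ultra RNA kit per the labels' protocols. The deposited table holds 1 column per tumor of normalized counts (unit: signal), values of 0 or more; per the submitters' processing notes HISAT2, featureCounts and DESeq2 were used with build GRCm38 (versions, annotation and strand setting not given in the sources used here). Each column consists of whole multiples (within 0.001 read) of 1 step between 0.817 and 1.56 normalized counts, taken as 1 read for the read totals (less certain for PIIO-1 tumors 1 and 3, whose step lies close to 1); 3 reads are worth between 2.45 and 4.68 normalized counts.

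The treatment label gave each tumor its group, and the title its replicate number, which does not pair the tumors; titles and columns of PIIO-1 tumors read a4D3. Values were tested as log2(value + 1) by limma (version 3.58.1, R 4.3.3, trend option) in genes averaging 10 or more normalized counts, two-sided, with Benjamini-Hochberg adjustment over all 16767 genes at 0.05. Adjusted p-values of single genes are from this fit. Replicates all differed by more than counting noise (chi-square per gene 11.8 or more). Exon lengths and coordinates came from the GENCODE annotation of GRCm38, where 23960 of 24202 symbols (99.0%) matched 1 gene, and promoters from RefSeq (GRCm38.p6).

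The members and lists were chosen with earlier results of these data known. Named are the 10 members, the 2 genes with the smallest p of each of 5 companion lists, and the 3 genes most like each member. Of the companion genes so named, 1 is not reported here. Alternatives were pseudocounts of 0.5 and 5, no filter, a minimum mean of 50, TMM scaling, no trend, the replicate number as a block, Ptprc, T cell or NK cell levels as covariates, and tumors left out. Shares of all genes or gene pairs with correlations as strong as the members' were added later. Marker lists of B cells, dendritic cells, mast cells, macrophages, neutrophils, endothelium, fibroblasts, keratinocytes, red blood cells and stress genes were measured too; 0 of their members were called.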

Additional observations from a re-analysis of the deposited data

Results flagged for a closer look

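Of 28 groups of 5 values checked (the 10 genes and 4 ratios in each group), 1 was picked out because a single tumor lay far from the rest, and chance alone gives about 1 in 20 such groups. It was Bcl11b in PBS tumors, where tumor 1 held 214 normalized counts and the other 4 between 151 and 163. PBS tumor 1 also had the highest CD3 score of the 10 tumors, 8.91. The part of T cell content in this value was not tested.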

How the results depend on the processing

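Under every alternative run, 0 of all genes, 0 of the 10 members and 0 of the companion genes were called by limma, with or without the CD3 score. The adjusted p of the members ranged from 0.498 to 1.00 over 190 values without the score and from 0.290 to 1.00 over 130 values with it. With 1 tumor left out and no score, Runx3 reached an unadjusted limma p of 0.0208 (without PIIO-1 tumor 1) and Id3 of 0.0261 (without PBS tumor 3). Of all 16767 genes, 1657 had an unadjusted p under 0.05 in the first of these fits and 728 in the second. With the CD3 score, dropping PIIO-1 tumor 1 gave Runx3 an unadjusted limma p of 0.00699, in a fit with 1856 genes under 0.05. Dropping PBS tumor 5 gave Runx3 0.0121 and Il7r 0.0208 (2236 genes under 0.05). Dropping PBS tumor 3 gave Id3 0.00920 (1191 genes), and dropping PIIO-1 tumor 2 gave Il7r 0.0250 (1791 genes). The difference in the Tcf7 to Tbx21 ratio ranged from -0.13 to 0.11 that in the Id3 to Id2 ratio from -0.039 to 0.19, that in Il7r to Klrg1 from 0.11 to 0.42 and that in Eomes to Tbx21 from -0.19 to -0.026. The edgeR and DESeq2 alternatives were not run, because whole reads were not taken as recovered in 2 columns whose step (0.995 and 1.01) lies close to 1.

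Signs of several small differences changed when tumors were left out, and with the CD3 score those of Eomes, Id2 and Klrg1 did. Without the CD3 score, leaving out 1 tumor gave -0.15 to 0.26 for Tcf7, -0.48 to -0.0090 for Lef1, -0.12 to 0.24 for Bcl11b, -0.049 to 0.16 for Tbx21, -0.22 to 0.14 for Eomes, -0.082 to 0.23 for Id2 and -0.22 to 0.096 for Klrg1. With it the ranges were 0.0030 to 0.29 for Tcf7, -0.33 to -0.039 for Lef1, 0.042 to 0.22 for Bcl11b, 7e-06 to 0.19 for Tbx21, -0.14 to 0.11 for Eomes, -0.0055 to 0.22 for Id2 and -0.21 to 0.13 for Klrg1. With the Ptprc (CD45) level as a covariate Tcf7 differed by -0.053, Bcl11b by -0.017 and Tbx21 by -0.035. Lef1 differed by -0.41 in that fit, with the smallest p of the members (unadjusted p = 0.0607 and adjusted p = 0.612 by limma). Without PIIO-1 tumor 5 and PBS tumor 4, an alternative chosen after the data were seen, Tcf7 differed by -0.11, Il7r by -0.037, Bcl11b by -0.16 and Id2 by -0.16. With the NK score as a covariate, also chosen later, Eomes differed by 0.016 and Runx3 by 0.30 (unadjusted p = 0.0124 and adjusted p = 0.388 by limma). In the NK score fit 1790 of all 16767 genes had an unadjusted p under 0.05. The correlation of Klrg1 with the CD3 score was -0.0088 without the 2 farthest tumors. The cause of these changes was not tested. Lef1, Id3 and Runx3 kept their sign in all 19 alternatives without the CD3 score, and Il7r did in 18 of them.

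The replicate numbers do not pair the tumors (correlation of same-numbered deviations between -0.21 and 0.095). With the replicate number as a block, 0 genes and 0 members were called, and 885 genes had an unadjusted p under 0.05, against 944 without the block. With the block and the CD3 score 0 members were called. Il7r, Id3 and Runx3 had unadjusted limma p-values of 0.0429, 0.0491 and 0.0309. In that fit 1693 of all 16767 genes had an unadjusted p under 0.05. Depth is least in PBS tumor 4, and Lef1 was as low as 39.2 normalized counts in PIIO-1 tumor 3.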
